A study of Homo sapiens with 6 samples.

Results

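Nucleoporins and the soluble receptors that carry cargo through nuclear pores were compared between 2 stably transfected derivatives of SKOV3.ip1, a human ovarian cancer cell line. Genes were taken by symbol, as NUP, KPNA, KPNB, IPO, XPO or TNPO followed by a digit, and their probe sets were used where the array annotation named that gene alone. The rule found 141 probe sets of 50 genes among the 19775 genes that had at least 1 unshared probe set. Nucleoporins made up 56 probe sets of 23 genes and transport receptors 77 probe sets of 22 genes. The other 8 probe sets measured 5 symbols that encode no protein, which are given apart. KPNA7 had no probe set of its own.

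Both lines carried a vector for PEA-15, a small cytoplasmic adaptor of ERK and FADD that is phosphorylated on serines. In the S116A line Ser116 was replaced by alanine, which cannot be phosphorylated. In the S116D line aspartic acid stood in for the phosphorylated residue. For S116D the titles name Ser116, the sample characteristics name Ser104 as well, and the treatment text says Ser16, so which residues were changed is unsettled. The labels state neither the promoter of the vector nor whether a line is a single clone or a pool. None of the 6 arrays was of untransfected or empty-vector cells, so each difference compares the 2 lines only with each other. Total RNA of each line was hybridised to 3 Affymetrix HG-U133 Plus arrays. The labels do not say whether the 3 came from separate cultures, so every p-value rests on a spread between arrays that may be only technical.

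The nuclear pore is a ring-shaped channel in the nuclear envelope, built from many copies of each nucleoporin. Its outer rings are formed by the Y complex, its inner ring anchors the central channel, and phenylalanine-glycine repeats in the channel form the barrier that receptors cross. Most receptors belong to the importin beta family, and each binds cargo on one side of the envelope and releases it on the other under control of the small GTPase Ran. Importin alpha proteins, encoded by KPNA genes, are adaptors that link cargo with a classical nuclear localisation signal to importin beta 1, encoded by KPNB1.

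To show what lies upstream of the genes on which the results turn, the 250 bases before the annotated start are given for 4 genes with lower signal in S116D (NUP88, KPNA1, KPNA3 and IPO5) and for KPNA2, an importin alpha gene that was not called. The sequences are RefSeq's, assembly GRCh38.p14, written 5′ to 3′ on the strand of the gene. Capitals mark matches, on either strand, to the CCAAT box (CCAAT), the GC box (GGGCGG) or the E box (CACGTG).
NUP88: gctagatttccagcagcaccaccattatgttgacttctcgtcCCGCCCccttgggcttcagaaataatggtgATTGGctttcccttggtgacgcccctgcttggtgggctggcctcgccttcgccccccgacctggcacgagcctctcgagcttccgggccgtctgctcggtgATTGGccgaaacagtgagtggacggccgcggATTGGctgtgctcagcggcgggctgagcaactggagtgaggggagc
KPNA1: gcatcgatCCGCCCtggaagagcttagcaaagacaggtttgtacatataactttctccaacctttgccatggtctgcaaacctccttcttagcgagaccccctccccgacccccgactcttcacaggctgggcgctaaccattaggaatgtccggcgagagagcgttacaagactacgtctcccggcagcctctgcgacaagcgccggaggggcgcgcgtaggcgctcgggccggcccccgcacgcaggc
KPNA3: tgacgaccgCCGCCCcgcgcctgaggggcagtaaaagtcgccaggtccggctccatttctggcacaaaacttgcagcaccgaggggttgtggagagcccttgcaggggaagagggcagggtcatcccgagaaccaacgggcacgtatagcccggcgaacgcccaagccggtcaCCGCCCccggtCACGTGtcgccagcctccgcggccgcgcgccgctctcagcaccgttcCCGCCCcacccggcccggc
IPO5: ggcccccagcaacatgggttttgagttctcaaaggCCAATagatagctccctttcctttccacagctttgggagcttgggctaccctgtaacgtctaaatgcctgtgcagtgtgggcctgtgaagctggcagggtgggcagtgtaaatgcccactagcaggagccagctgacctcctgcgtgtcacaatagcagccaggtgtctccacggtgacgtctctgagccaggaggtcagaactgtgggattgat
KPNA2: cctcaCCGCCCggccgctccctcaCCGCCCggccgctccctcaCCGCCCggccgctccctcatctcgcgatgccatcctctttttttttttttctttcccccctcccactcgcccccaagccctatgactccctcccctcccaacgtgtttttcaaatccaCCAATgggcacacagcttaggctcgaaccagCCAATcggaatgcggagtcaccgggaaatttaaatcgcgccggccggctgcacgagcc

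The windows lie at chr17:5419663-5419912 (minus strand) for NUP88, chr3:122514940-122515189 (minus) for KPNA1, chr13:49792683-49792932 (minus) for KPNA3, chr13:97953425-97953674 (plus) for IPO5 and chr17:68035485-68035734 (plus) for KPNA2. Of the 45 protein-coding members, 40 had a window in the RefSeq table. Of the 11 with a probe set called lower, 9 had one, and KPNA4 and KPNB1 had none. NUP88 held 3 CCAAT matches and 1 GC box match, KPNA1 1 GC box match, KPNA3 3 GC box matches and 1 E box match, IPO5 1 CCAAT match, and KPNA2 2 CCAAT and 3 GC box matches. The CCAAT box was present in 4 of the 9 windows of genes with a probe set called lower (IPO5, NUP88, TNPO1 and XPO6). It was also in 16 of the 31 windows of members with no call and in 32% of all 35116 windows. Member counts hold 1 window for each protein-coding gene. All 35116 windows were not reduced in this way and include transcripts without a protein, so these shares are of unlike sets. For the GC box the counts were 6 of 9, 14 of 31 and 42.6%, and for the E box they were 3 of 9 (IPO4, IPO7 and KPNA3), 3 of 31 and 6.34%. The ETS site (CCGGAAGT) was found in 1 of 9, 5 of 31 and 3.42%, and the AP-1 site (TGANTCA) in 1 of 9, 1 of 31 and 6.57%. A cAMP response element (TGACGTCA) was found in none of the 9, 3 of 31 and 1.65%, and the NRF1 core (GCATGCGC) in none of the 9, 4 of 31 and 2.63%. These matches describe the letters of the windows and are not binding sites.

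Signals were log2 values with array medians between 7.862 and 7.893, and each difference below is S116D minus S116A on that scale. A probe set was called when limma's adjusted p, over all 54613 non-control probe sets, was under 0.05. Of all probe sets, 8.55% were called, 4.19% lower and 4.36% higher in S116D, and their median difference was 0.00. Pearson correlations over all probe sets were 0.9951 to 0.9979 within a line and 0.9866 to 0.9902 between lines. On the second principal component, with 20.3% of the variance, the arrays formed a first set (S116A 1, S116A 2, S116D 1) and a second set (S116A 3, S116D 2, S116D 3) that match no label. Listed marker and proliferation genes were read by their brightest probe set and called over 19775 genes, of which 5.39% were lower and 6.79% higher. Of 10 markers of ovarian carcinoma epithelium, 6 were called lower (KRT7, KRT8, KRT18, KRT19, EPCAM and CDH1). The mean log2 level of these 10 ran from 11.52 to 11.89 on S116A arrays and from 10.81 to 11.08 on S116D arrays. PAX8, a lineage factor of this tumour, stayed at a mean of 12.77 in S116A and 12.82 in S116D, and MUC16 was dim in both lines at 6.72 and 6.59. None of 7 fibroblast and 5 leukocyte markers was called, and 1 of 5 endothelial markers, the dim KDR, was lower. On the proliferation list 3 of 16 genes were lower. The part of these shifts in the results below was not tested.

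Transport receptor signals were shifted toward lower values in S116D, with a negative difference on 57 of 77 probe sets, against 26685 of all 54613. Of the 77, 25 were called lower and 1 higher, against 4.19% and 4.36% of all probe sets, and the median difference over the 77 was -0.21. All 25 lay among the 65 receptor probe sets above the median signal, where 6.87% of all probe sets were called lower. The 25 belonged to 9 of the 22 genes: KPNA1, KPNA3, KPNA4, KPNB1, IPO4, IPO5, IPO7, TNPO1 and XPO6. On 38 of the 77, every S116D array lay below every S116A array, which held for 11.5% of all probe sets and for 16.4% of those above the median signal. The reverse order was found on 9 of the 77, against 12.5% of all. With bulk RNA, fewer cells with a transcript and less of it per cell cannot be told apart. With 1 array left out at a time, the count of receptor probe sets called lower ranged from 13 to 25. Omitting S116A 1 gave 14, omitting S116D 2 gave 13 and omitting S116D 3 gave 14, when calls over the whole table were 2775, 2608 and 2772 in place of 4672.

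**Figure D1:**
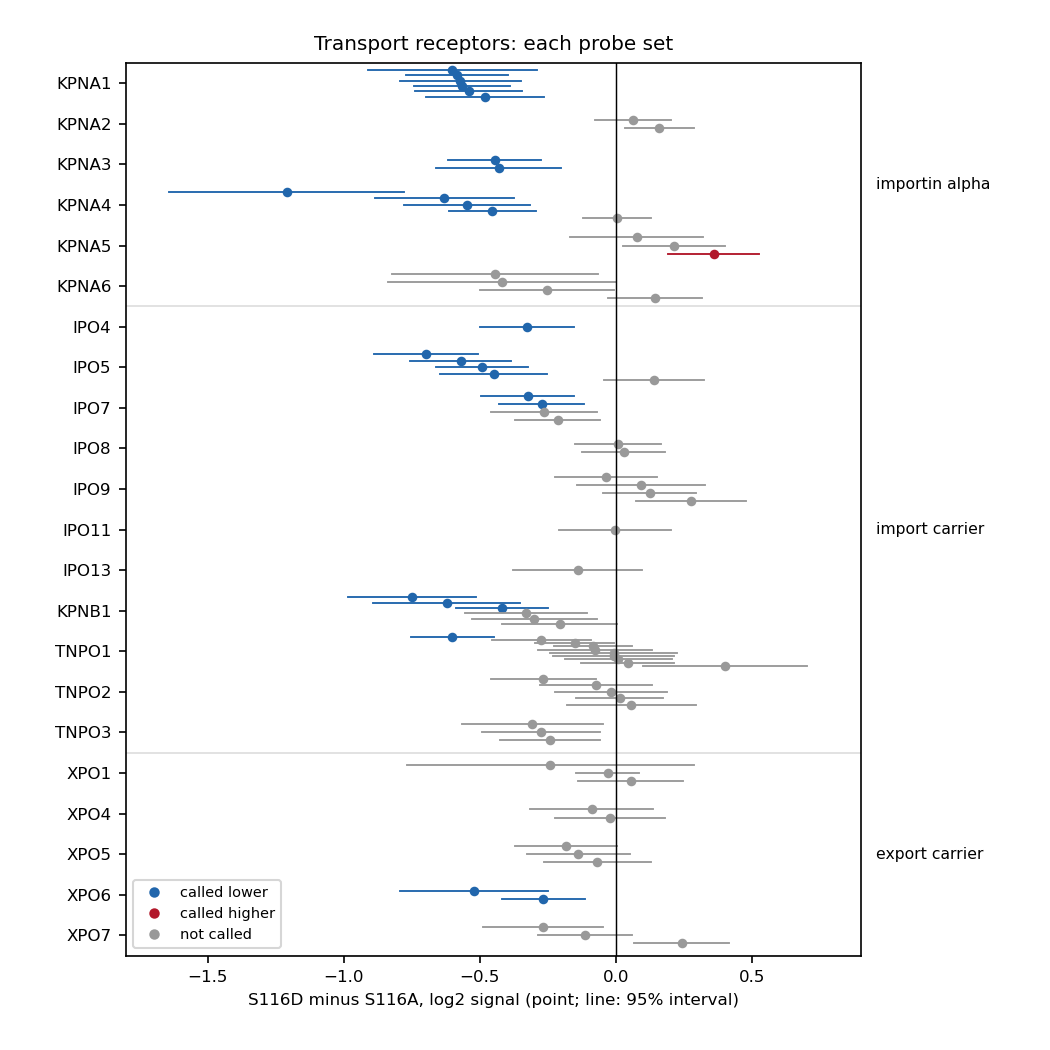
Difference between the lines for each of the 77 receptor probe sets, by gene and role, as S116D minus S116A in log2 signal with its 95% interval. Blue points mark the 25 probe sets called lower and red the 1 called higher; all probe sets of KPNA1 and KPNA3 lie left of 0, while those of KPNA2 and KPNA5 lie right of it.

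Importin alpha adaptors had the highest share of calls among the 3 receptor classes, with 12 of 22 probe sets lower, 1 higher and a median difference of -0.45. Over all probe sets 4.19% were lower and 4.36% higher. KPNA1, KPNA3 and KPNA4 fell in S116D, KPNA2 and KPNA6 had no call, and 1 dim probe set of KPNA5 rose. The proteins fall into 3 sequence subfamilies, in which KPNA3 and KPNA4 form one, KPNA1, KPNA5 and KPNA6 another, and KPNA2 and KPNA7 the remaining one. The called genes came from more than 1 subfamily, and the KPNA1 subfamily was split between lower, higher and no call.

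KPNA1 encodes importin alpha 5, an adaptor for classical import signals, and all 6 of its probe sets were called lower. Probe set 213741_s_at, its brightest, read 11.17, 11.14 and 11.03 on the S116A arrays and 10.56, 10.43 and 10.59 on the S116D arrays. Probe set 202055_at read 11.05, 10.87 and 10.96 against 10.52, 10.24 and 10.41. No array of one line reached the values of the other on either probe set. Probe set 202056_at read 10.28, 10.16 and 10.47 against 9.86, 9.80 and 9.81. Probe set 202057_at read 8.84, 8.72 and 8.85 against 8.33, 8.22 and 8.16. The dimmer transcript regions thus had the same order of lines as the brighter ones. Probe set 202058_s_at read 9.86, 9.66 and 9.83 against 9.17, 9.25 and 9.32. Probe set 202059_s_at read 10.28, 10.24 and 10.00 against 9.86, 9.39 and 9.47, the widest spread of the 6 within S116D. The 6 differences ran from -0.48 to -0.60, folds of 1.40 to 1.52, with limma's adjusted p between 0.0029 and 0.0293. The call on 202056_at was lost without S116A 1, S116D 2 or S116D 3 (adjusted p 0.0558 to 0.0731), and that on 202059_s_at also without S116A 2 (0.109 to 0.116 over these 4 arrays).

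KPNA3 and KPNA4 encode the closely related importins alpha 4 and alpha 3, the latter known for importing NF-kappaB subunits. For KPNA3, 221502_at read 13.12, 12.99 and 12.86 in S116A and 12.73, 12.43 and 12.51 in S116D. Its other probe set, 221503_s_at, read 11.95, 11.89 and 11.96 against 11.45, 11.43 and 11.58. Both were called lower without overlap, by differences of -0.43 (SE 0.10, limma adjusted p 0.0338) and -0.45 (SE 0.07, 0.0079). The call on 221502_at was lost without S116A 1, S116A 2, S116D 2 or S116D 3 (adjusted p 0.104 to 0.138). For KPNA4, 213567_at read 10.91, 10.57 and 10.25 in S116A and 9.71, 9.20 and 9.18 in S116D, a difference of -1.21 (SE 0.19, limma adjusted p 0.0056) or 2.31-fold. This was the largest difference of any receptor probe set, and among the called probe sets its arrays spread most within each line. Probe set 225268_at, the brightest of KPNA4, read 12.74, 12.62 and 12.73 against 12.26, 12.18 and 12.28, a difference of -0.45. Probe set 225267_at read 12.23, 11.89 and 11.97 against 11.56, 11.34 and 11.29, and 209653_at read 9.91, 9.64 and 9.80 against 9.33, 9.09 and 9.30. These differed by -0.63 and -0.55 and were called (limma adjusted p 0.0103 and 0.0127). Without S116D 2 both calls were lost (adjusted p 0.0533 and up to 0.0563), and without S116A 1 that on 209653_at (at least 0.0549). The fifth probe set, 1558383_at, was dim at 6.50 to 6.60 on all 6 arrays, with a difference of 0.00 (95% interval -0.12 to 0.13).

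KPNA2 encodes importin alpha 1, an adaptor that is abundant in dividing and tumour cells. Probe set 201088_at read 14.22, 14.06 and 14.09 in S116A and 14.21, 14.17 and 14.18 in S116D. Probe set 211762_s_at read 13.97, 13.91 and 13.99 against 14.07, 14.13 and 14.15. The first overlapped between lines, with a difference of 0.06 and a 95% interval of -0.08 to 0.20. The second lay higher in S116D on all arrays, by 0.16 with an interval of 0.03 to 0.29, but was not called (limma adjusted p 0.141). Neither interval reaches -0.48, the smallest of the KPNA1 differences.

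KPNA5 encodes importin alpha 6, an adaptor closely related to KPNA1. Probe set 206241_at was dim and read 6.18, 5.95 and 6.05 in S116A and 6.41, 6.34 and 6.51 in S116D, a rise of 0.36 (SE 0.07, limma adjusted p 0.0183). The call was lost without S116A 2 or S116D 3 (adjusted p 0.0666 and 0.0732). The other probe sets of KPNA5 differed by 0.21 and 0.08 without a call. KPNA6 had differences of -0.44, -0.42, -0.25 and 0.14 on its 4 probe sets, none called, and the first 3 overlapped between lines.

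The import carriers, which bind cargo directly or through an adaptor, had 11 of 42 probe sets called lower and none higher. Over all probe sets 4.19% were lower and 4.36% higher. The median difference of the 42 was -0.18. KPNB1, the partner of all importin alpha adaptors, had 3 of 6 probe sets called. Probe set 213573_at read 11.74, 11.72 and 11.42 in S116A and 10.96, 10.85 and 10.82 in S116D, a difference of -0.75 (SE 0.10, limma adjusted p 0.0032). Probe set 213803_at read 12.02, 11.94 and 11.62 against 11.38, 11.20 and 11.13, a difference of -0.62 (SE 0.12, adjusted p 0.0143 by limma). Probe set 213574_s_at read 12.95, 12.97 and 12.78 against 12.46, 12.53 and 12.45, a difference of -0.42. On these 3 the lines did not overlap. The brightest, 208974_x_at, read 13.56, 13.45 and 13.34 against 13.34, 12.98 and 13.13. Its lines came closest at 13.3376 on S116A 3 and 13.3368 on S116D 1. Probe set 213507_s_at read 13.49, 13.41 and 13.30 against 13.28, 12.96 and 12.98, and 208975_s_at read 11.05, 10.89 and 11.15 against 10.79, 10.76 and 10.91. These 3 differed by -0.30, -0.33 and -0.21 and were not called (limma adjusted p 0.123, 0.0833 and 0.264), so the probe sets of KPNB1 disagreed in size but not in sign. Of the 6, the lines overlapped only on 208975_s_at. The call on 213803_at was lost without S116A 1, S116A 2, S116D 2 or S116D 3 (adjusted p 0.0591 to 0.0658) and that on 213574_s_at without S116D 3 (0.0504).

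IPO5 encodes importin 5, a carrier of ribosomal proteins and histones, and 4 of its 5 probe sets were called lower. Probe set 211954_s_at, the brightest, read 12.55, 12.30 and 12.44 in S116A and 11.84, 11.85 and 11.89 in S116D. Probe set 211953_s_at read 12.40, 12.30 and 12.49 against 11.59, 11.71 and 11.79. These differed by -0.57 and -0.70, or 1.49- and 1.62-fold, with limma's adjusted p at 0.0036 and 0.0017. Probe set 211955_at read 12.07, 11.79 and 11.98 against 11.51, 11.48 and 11.51, and 211952_at read 9.74, 9.61 and 9.71 against 9.16, 9.21 and 9.21. Their differences were -0.45 and -0.49. The call on 211955_at was lost without S116A 1, S116D 2 or S116D 3 (adjusted p 0.0567 to 0.0714). The fifth, 236906_x_at, had the opposite sign at 0.14 (95% interval -0.05 to 0.32) and was not called.

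IPO7, which imports ribosomal proteins and ERK2, had 2 of 4 probe sets called. Probe set 200994_at read 12.81, 12.85 and 12.76 in S116A and 12.61, 12.49 and 12.50 in S116D. Probe set 200995_at read 10.65, 10.69 and 10.76 against 10.35, 10.43 and 10.35. The differences were -0.27 and -0.32 (limma adjusted p 0.0418 and 0.0319), and the other 2 probe sets differed by -0.26 and -0.21 without a call. The call on 200995_at was lost whichever array was left out (adjusted p 0.0638 to 0.124), and that on 200994_at without any array other than S116D 1 (0.0573 to 0.176). IPO4, a carrier of histones, had 1 probe set, which read 10.31, 10.29 and 10.21 in S116A and 9.99, 9.94 and 9.90 in S116D, a difference of -0.33 (SE 0.07, limma adjusted p 0.031). Its call was lost without S116A 1, S116A 2, S116D 2 or S116D 3 (adjusted p 0.101 to 0.128).

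TNPO1 encodes transportin 1, the carrier of proteins with a PY-type signal such as hnRNP A1. It had 10 probe sets, and only 212635_at was called. That probe set read 12.60, 12.59 and 12.62 in S116A and 11.96, 12.06 and 11.99 in S116D, a difference of -0.60 (SE 0.07, limma adjusted p 0.0011). The replicates were tight and the lines far apart on it. Probe sets of similar or greater brightness gave other values, with 225766_s_at at -0.28, 225765_at at -0.15, 221829_s_at at -0.01 and 209225_x_at at 0.01. The last, on which the lines overlapped, had a 95% interval of -0.19 to 0.20. Which transcript forms these probe sets detect was not tested. TNPO3, the carrier of SR splicing factors, had all 3 probe sets at -0.31 to -0.24 without a call, with every S116D array below every S116A array. IPO8, IPO9, IPO11, IPO13 and TNPO2 had no call on any of their probe sets. IPO8's brightest probe set differed by 0.01 (95% interval -0.15 to 0.16) and that of IPO13 by -0.14. TNPO2's brightest was at -0.27 with every S116D array below every S116A array, and its others lay between -0.07 and 0.06. IPO9's brightest was at 0.12 with every S116D array above every S116A array. IPO11 was held here by a single dim probe set. Another pair of probe sets, left out because their annotation names a second gene beside IPO11, were called lower at -0.36 and -0.38 (limma adjusted p 0.0265 and 0.0485), and the third such probe set differed by -0.02 without a call.

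Export carriers had 2 of 13 probe sets called lower, both of XPO6, and a median difference of -0.11. Of all probe sets 4.19% were called lower, and 6.87% of those above the median signal, where 12 of the 13 lay. XPO6 encodes exportin 6, which removes actin from the nucleus. Probe set 211982_x_at read 11.67, 11.40 and 11.32 in S116A and 11.13, 10.88 and 10.82 in S116D, and 214784_x_at read 11.84, 11.77 and 11.82 against 11.53, 11.55 and 11.54. The differences were -0.52 (SE 0.12) and -0.27 (SE 0.07), with limma's adjusted p at 0.031 and 0.0462. The second was called in none of the fits with an array left out (adjusted p 0.0825 to 0.157), and the first was not called without S116A 1, S116A 2, S116D 2 or S116D 3 (0.0808 to 0.122).

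XPO1 encodes CRM1, the exportin for leucine-rich export signals and the target of selinexor. PEA-15 itself carries such a signal. Probe set 208775_at read 14.13, 14.16 and 14.16 in S116A and 14.12, 14.13 and 14.10 in S116D. Probe set 235927_at read 8.55, 9.43 and 9.08 against 8.40, 8.93 and 9.01, and 244012_x_at read 8.22, 8.44 and 8.48 against 8.41, 8.47 and 8.41. The bright probe set differed by -0.03 with a 95% interval of -0.15 to 0.08, and the other 2 overlapped between lines. XPO4, XPO5 and XPO7 had differences between -0.27 and 0.24 and no call.

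**Figure D2:**
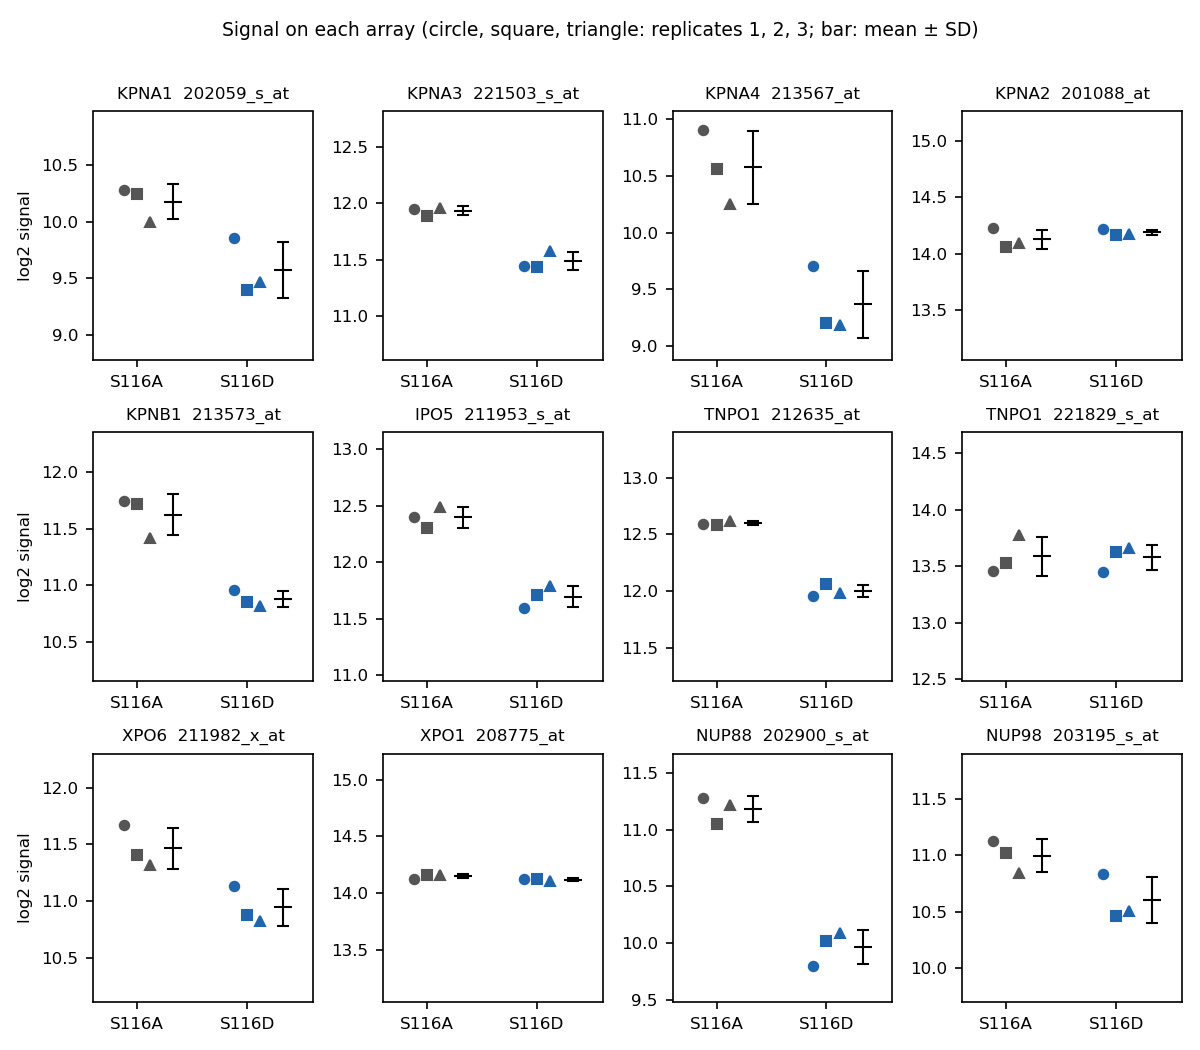
Log2 signal on each array of 12 probe sets of 11 genes (of called genes the called probe set with the largest difference, of KPNA2, XPO1 and NUP98 the brightest, and of TNPO1 both), with replicates as circle, square and triangle and the mean ± SD of each line beside them; each panel spans the same range of log2 signal. KPNA1, KPNA4, KPNB1, IPO5 and NUP88 show separate lines, whereas XPO1 and KPNA2 overlap or nearly coincide and the pair of TNPO1 probe sets differs.

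Among the 56 nucleoporin probe sets, 2 were called lower, NUP88 and NUP155, and none higher, against 4.19% and 4.36% of all probe sets, and the median difference was -0.08. At an unadjusted p under 0.05 by limma, 12 were lower and 0 higher, against 9.87% and 9.83% of all probe sets. On 16 of the 56 every S116D array lay below every S116A array, against 11.5% of all probe sets. Above the median signal this held for 13 of 39 nucleoporin probe sets and 16.4% of all. The reverse order was found on 1 of the 56, against 12.5% of all. Probe sets without a call ran from -0.40 to 0.29.

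NUP88 sits on the cytoplasmic face, where it forms a complex with NUP214, and it is often abundant in tumours. Probe set 202900_s_at read 11.28, 11.06 and 11.22 in S116A and 9.80, 10.02 and 10.09 in S116D. This is a mean of 11.18 ± 0.12 (SD, n = 3) against 9.97 ± 0.15 (SD, n = 3), a difference of -1.22 (SE 0.10, limma adjusted p 0.000301), or 2.33-fold. It was the largest difference and the smallest adjusted p among all members. The lines did not overlap, and the call held in all 6 fits with an array left out. The second probe set, 214192_at, read 8.35, 8.29 and 8.34 against 8.06, 8.25 and 8.27, a difference of -0.13 (95% interval -0.31 to 0.05) that was not called. Its partner NUP214 differed by -0.37 on its brightest probe set, where the lines overlapped, and NUP42 by -0.12. Neither was called.

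NUP155 belongs to the inner ring, whose subunits were otherwise not called. Its probe set read 11.97, 11.85 and 11.89 in S116A and 11.47, 11.58 and 11.63 in S116D, a difference of -0.34 (SE 0.08, limma adjusted p 0.0287). The call was lost whichever array was left out (adjusted p 0.0544 to 0.109). The inner ring genes NUP93, NUP188 and NUP205 differed by -0.15, -0.20 and -0.20 on their brightest probe sets and NUP35 by 0.04.

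NUP98, whose transcripts encode both the mobile nucleoporin NUP98 and the scaffold subunit NUP96, had no call. Probe set 203195_s_at read 11.13, 11.02 and 10.84 in S116A and 10.83, 10.46 and 10.51 in S116D. Probe set 210793_s_at read 10.77, 10.88 and 10.71 against 10.55, 10.82 and 10.60, and 203194_s_at read 9.80, 9.70 and 9.45 against 9.74, 9.66 and 9.52. Only the first was separate between the lines, at -0.40 (SE 0.12, limma adjusted p 0.0902), and the others differed by -0.13 and -0.01.

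The 11 probe sets of the Y complex, the scaffold of the outer rings, had no call and a median difference of -0.01. NUP107 differed by 0.00 with a 95% interval of -0.17 to 0.17. NUP133, NUP160, NUP37, NUP43 and NUP85 lay between -0.18 and 0.06 on their brightest probe sets. Central channel subunits NUP54, NUP58 and NUP62 had a median difference of -0.06 over 10 probe sets and no call, with the lowest at -0.39 and -0.36 on NUP58. On all 9 probe sets of the nuclear basket, from NUP50 and NUP153, the difference was negative, with a median of -0.10 and no call, and the brightest of NUP153 was at -0.28 (limma adjusted p 0.0894). All 5 probe sets of the membrane nucleoporin NUP210 had a positive difference, at 0.07 to 0.29 and without a call. A positive difference was found on 15 of the 56 nucleoporin probe sets and on 27928 of all 54613. NUP210L and NUP62CL, tissue-restricted relatives, were dim throughout.

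**Figure D3:**
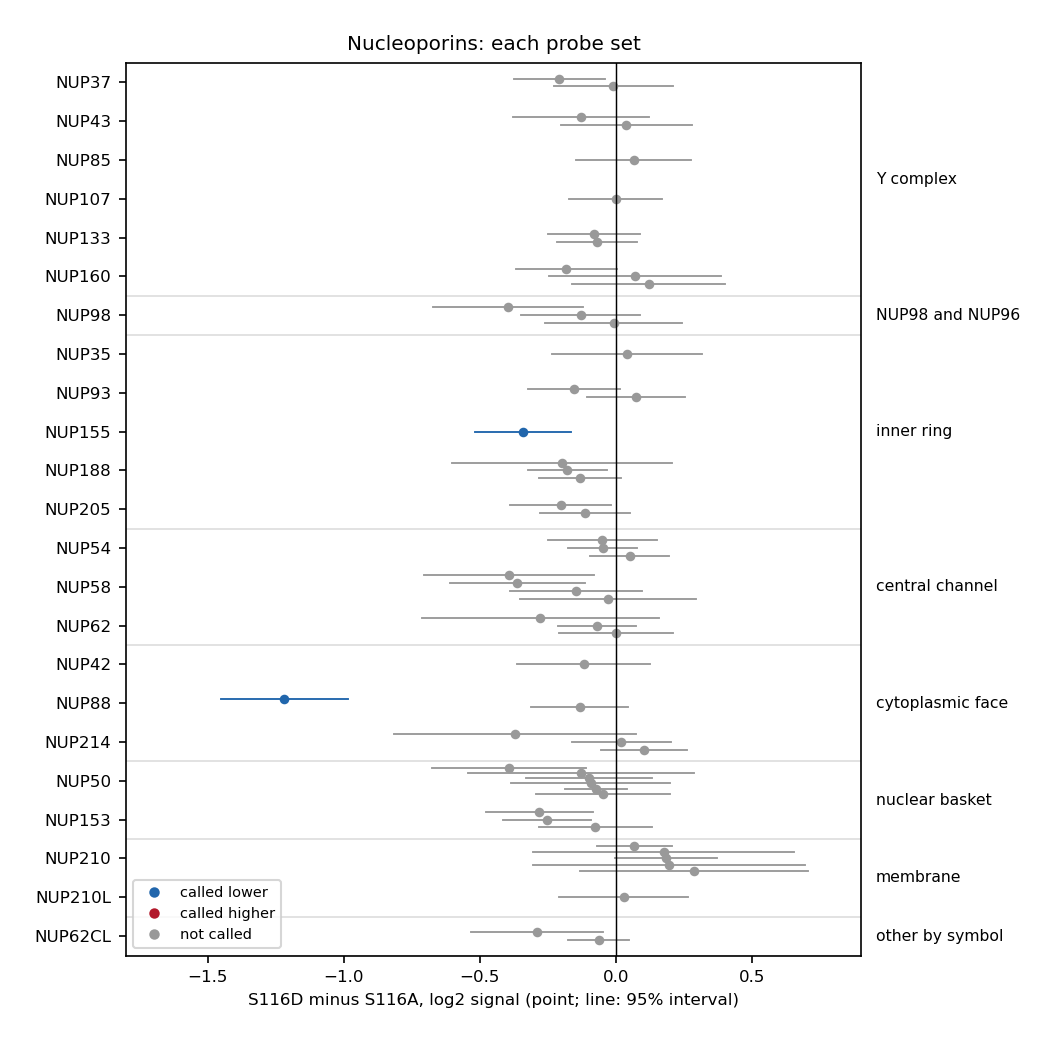
Difference between the lines for each of the 56 nucleoporin probe sets, by gene and place in the pore, as S116D minus S116A in log2 signal with its 95% interval. The NUP88 point at -1.22 stands apart from the rest, the NUP155 point at -0.34 is the other one called lower, and the points of the Y complex lie around 0.

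**Figure D4:**
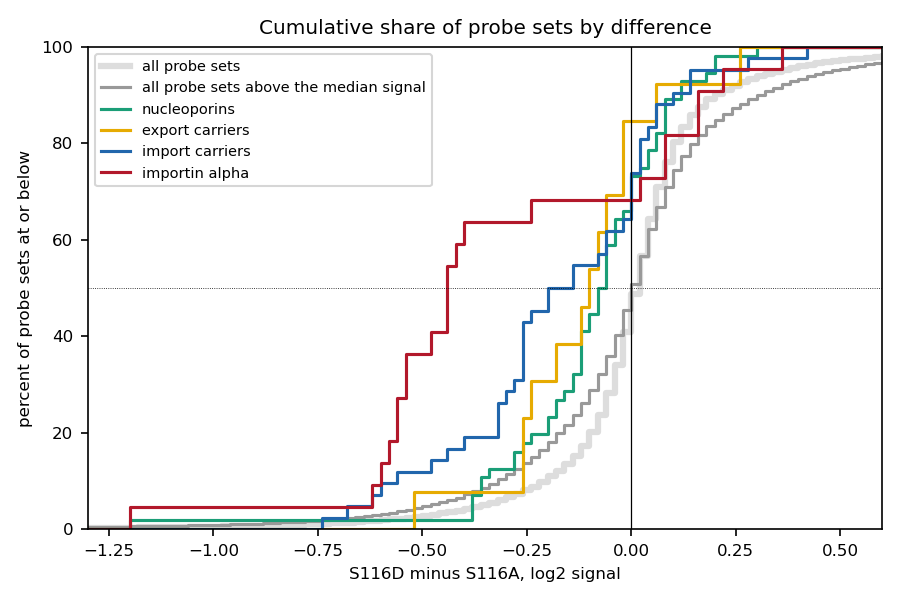
Cumulative share of probe sets (y axis, percent) at or below each difference (x axis, S116D minus S116A, log2 signal) for 4 classes of members and, in grey, for all probe sets and for those above the median signal. The dotted line marks the median, which is -0.45 for importin alpha, -0.18 for import carriers, -0.11 for export carriers and -0.08 for nucleoporins.

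Read by 1 probe set a gene, the brightest, 6 of the 22 receptor genes were called lower (IPO4, IPO5, KPNA1, KPNA3, KPNA4 and XPO6) and none higher, over 19775 genes of which 5.39% were lower and 6.79% higher. Of the 23 nucleoporin genes, NUP88 and NUP155 were lower. KPNB1, IPO7 and TNPO1 were absent from this count since their brightest probe sets were not among those called. No member gene had probe sets called in both directions.

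The array sets named above bore on some members. On all 28 called probe sets the lines did not overlap, so the same direction within each set had to follow. All 28 were called with the set as a block, a fit chosen after seeing the data (highest limma adjusted p 0.0146). With that block 35 receptor probe sets were lower and 2 higher, and 9 nucleoporin probe sets lower and 3 higher, while 7.36% of all probe sets were lower and 7.47% higher. The 3 that were higher are all of NUP210, at 0.38, 0.40 and 0.46 with the block and 0.17, 0.19 and 0.29 without it. Its brightest probe set read 10.72 and 10.77 on S116A 1 and S116A 2 and 11.13 on S116D 1, but 10.15 on S116A 3 and 10.71 and 10.66 on S116D 2 and S116D 3. The GAPDH control probe sets, a sign of RNA integrity, gave a 3′ over 5′ log2 ratio of 0.726 to 0.793 in the first array set and 0.653 to 0.708 in the second. The same ratio for ACTB overlapped, at 2.33 to 2.44 in the first and 2.27 to 2.47 in the second. The part of these ratios in the differences was not tested.

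**Figure D5:**
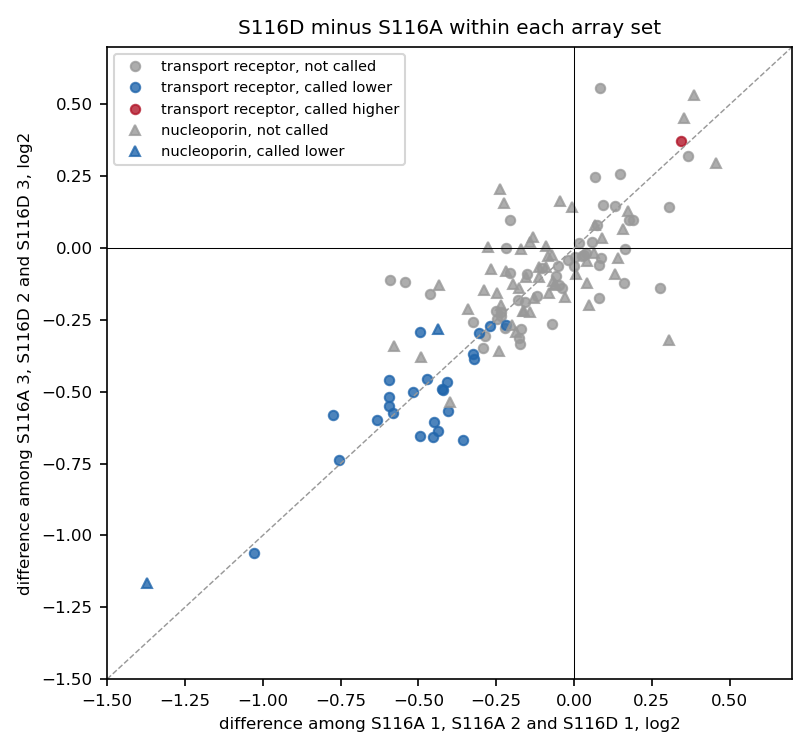
S116D minus S116A in log2 signal within S116A 1, S116A 2 and S116D 1 (x axis) and within S116A 3, S116D 2 and S116D 3 (y axis), for each receptor (circles) and nucleoporin (triangles) probe set, with a dashed line of equality. All 28 called probe sets lie in the lower left or, for KPNA5, the upper right quadrant, as a probe set whose lines do not overlap must.

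Genes of the same pathway outside the symbol rule were read by their brightest probe set only. Their calls were made over 19775 genes, of which 5.39% were lower and 6.79% higher. None of 11 other pore subunits was called, nor had any an unadjusted p under 0.05 by limma. None of 4 other receptors of the importin beta family was called. At an unadjusted p under 0.05 by limma, 2 of these 4 were higher in S116D. Over all probe sets 9.83% were higher and 9.87% lower at that threshold. CSE1L, which returns importin alpha to the cytoplasm, differed by 0.18, RANBP17 by 0.21, RANBP6 by 0.20 and the tRNA exporter XPOT by -0.02. The median of these 4 genes was 0.19, opposite in sign to the -0.21 over the 77 receptor probe sets. In the Ran cycle 1 of 6 measured genes was called, the Ran exchange factor RCC1 at -0.32 (limma adjusted p 0.0383 over genes). RAN itself read a mean of 14.22 in S116A and 14.17 in S116D. Of 15 measured mRNA export genes, 1 was lower, PCID2 at -0.57 (limma adjusted p 0.0040). Of 15 lamina and envelope genes, LMNB2 (-0.76) and SUN1 (-0.45) were lower and TOR1AIP1 (0.25) higher. On the proliferation list MCM4, MCM5 and RRM2 were lower by differences of -0.46, -0.40 and -0.23, and the list's mean log2 level was 12.58 to 12.73 on S116A arrays and 12.55 to 12.61 on S116D arrays.

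Among the called member genes, 2 each lie on chromosomes 3, 5, 13 and 17. KPNA3 and IPO5 lie on chromosome 13, where 64 of 401 genes (16%) were called lower, the highest share of any chromosome. Over all genes the share was 5.39%. Of the 6 nearest genes to IPO5, 3 were called lower, MBNL2 at -0.79, RAP2A at -0.68 and STK24 at -0.37. Beside KPNA3, DLEU2 was lower at -0.70 and the other 5 had no call. On the same chromosome XPO4 differed by -0.09 and NUP58 by -0.15 on their brightest probe sets, with no call. The other probe sets of NUP58 differed by -0.39, -0.36 and -0.03, also without a call. Around NUP88 none of 6 neighbours was called. Over the 72 neighbours of all called members, 6 were lower, 2 higher and 64 not called, against 5.39% lower and 6.79% higher over all genes. On chromosomes 16 (XPO6) and 3 (KPNA1 and KPNA4), 11.9% and 8.67% of genes were lower. The share was 4.09% on chromosome 17 (KPNB1 and NUP88), 3.85% on 11 (IPO7) and 2.45% on 14 (IPO4). On chromosome 5 (NUP155 and TNPO1) 3.04% were lower and 16.1% higher. The part of gene position in these differences was not tested.

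The symbols without a protein had no call over all probe sets. IPO5P1, a pseudogene copy of IPO5, read 9.02, 8.95 and 8.91 in S116A and 9.43, 9.13 and 9.36 in S116D on its brightest probe set, a difference of 0.34 with limma's adjusted p at 0.0596 over probe sets and 0.0454 over genes. Its sequence is close to that of IPO5, so which transcript these probes detect is uncertain. NUP210P1, IPO9-AS1, NUP133-DT and NUP50-DT differed by between -0.20 and 0.12.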

How the data were processed

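Per the labels' protocols, biotin-labelled cRNA of 3 S116A and 3 S116D samples was measured on HG-U133 Plus arrays from Affymetrix. The authors deposited 1 value per probe set and array, taken as log2 signals because they lay between 4.34 and 15.33 with nearly equal quartiles. MAS5 and RMA are named in the submitters' processing notes, without roles or versions, and the background correction is not given in the sources used here. Whether differences of dim probe sets are compressed in these values is therefore not known. No detection calls were used, and the number of arrays limits the precision.

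Of 54675 probe sets, 62 controls were left out. GEO's platform annotation, with symbols updated through the gene identifier to RefSeq (GRCh38.p14), named a single gene for 41091 probe sets (41037 identifiers matched), several for 1801 and none here for 11721. Differences were fitted over all 54613 probe sets, or over 19775 genes by their brightest probe set, with limma 3.58.1 in R 4.3.3 (lmFit, eBayes with an intensity trend, no covariates, Benjamini-Hochberg). SEs and 95% intervals are limma's moderated ones. An exact permutation test of 3 against 3 arrays cannot go below p = 0.1, so none is given. Replicate numbers were not taken as pairs, since deviations of same-numbered arrays correlated at 0.45, -0.04 and 0.44. Per-array values are given for called member probe sets and for XPO1, KPNB1, KPNA2 and NUP98, and, chosen after their values were seen, for uncalled probe sets of NUP88, NUP210 and IPO5P1. From the pathway lists up to 3 called genes with the smallest adjusted p were named, and other names complete counts of 5 or fewer or were chosen after their values were seen. Members and lists were chosen with earlier results of these data known. Gene order and sequences came from RefSeq tables. On simulated data the fit was tested with 200 changed probe sets. Alternatives were other normalizations, a signal filter, eBayes without trend, blocks, array weights, other rules for a gene's probe set or symbol, and leaving out each array.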

Additional observations from a re-analysis of the deposited data

How the results depend on the processing

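Counts of calls moved more than the median differences of receptors and nucleoporins, which kept their sign under every alternative run. The median ran from -0.27 to -0.17 for receptors and from -0.12 to -0.06 for nucleoporins. With the replicate block, taken although the numbers are not pairs, 8 nucleoporin probe sets were lower and 2 receptor probe sets higher, and by gene 5 nucleoporins and 11 receptors were lower, while lower calls over all probe sets went from 2290 to 3760. With array weights 4 nucleoporin probe sets were lower and 3 receptor probe sets higher, and by gene 5 and 10 were lower, with 3280 lower calls over all probe sets. With the array set block, chosen after seeing the data, 9 nucleoporin probe sets were lower and 3 higher, 2 receptor probe sets were higher, and by gene 6 nucleoporins and 10 receptors were lower and 1 nucleoporin higher. Only above the median signal, 0 receptor probe sets were higher. With unshared probe sets preferred, 1 nucleoporin gene was lower. Leaving out 1 array gave 13 to 25 receptor probe sets lower and 0 to 2 higher, 1 to 2 nucleoporin probe sets lower, and by gene 3 to 6 receptors and 1 to 3 nucleoporins lower. Of the 28 called probe sets, 13 were called in all 6 of these fits and 3 in none. Quantile normalization ended 3 calls, those of XPO6 on 214784_x_at and of IPO7. Of the probe sets refitted under each alternative, those called and those of XPO1, KPNB1, KPNA2 and NUP98, 2 changed sign under some alternative, both near 0 and without a call: 203194_s_at of NUP98 and 244012_x_at of XPO1. With 3 arrays a line, small differences could not be called, and for dim probe sets no signal over background is known here.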
